A study of Mus musculus with 22 samples.

Results

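Aquaporins are membrane channels for water and, in some members, for glycerol, ammonia or ions. The 9 aquaporin genes described here (Aqp1, Aqp2, Aqp3, Aqp4, Aqp5, Aqp6, Aqp8, Aqp9 and Aqp11) were taken by symbol from a deposited expression table of 54514 gene entries. All 9 were in the table. Expression was measured by RNA-seq in 22 libraries of mpkCCD cells, an immortalised line from the mouse cortical collecting duct, and is given as TPM, a length-scaled share of the transcripts in a library. Unsorted wild-type (WT) cells without dDAVP gave 3 libraries, and unsorted WT cells with dDAVP (desmopressin, which activates the V2 receptor for vasopressin) gave 3. The GFP reporter lines C1, C11, C43 and C50 were all given dDAVP and separated into GFP-negative and GFP-positive cells, with 2 libraries per fraction. Every reporter line is 1 line with its own name, the promoter that drives its GFP is not given in the sources used here, and dose and duration of dDAVP are not tied to single libraries. All 10 groups share the mpkCCD background and a medium with dexamethasone, and the labels do not say that libraries of a group came from separate cultures, so that p-values measure the spread between these libraries only.

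In the collecting duct, vasopressin binds the V2 receptor on principal cells, raises cAMP and brings vesicles that hold aquaporin-2 to the apical membrane. Over hours to days it also raises transcription of Aqp2. Water that enters through aquaporin-2 leaves through aquaporin-3 and aquaporin-4 in the basolateral membrane, and aquaporin-6 is known as an intracellular channel of acid-secreting intercalated cells.

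The libraries differed in how many genes they detected. Between 17177 and 20250 genes were above 0 TPM in 10 libraries and between 23135 and 31292 in the other 12, and both kinds occurred in each comparison of WT cells and of GFP fractions. TPM keep no depth, so the depth of the libraries is unknown. Of 11 principal-cell markers 8 had a mean of at least 1 TPM, among them Avpr2 (137 to 385 TPM), Scnn1a (42.2 to 244 TPM) and Fxyd4 (107 to 2624 TPM), whereas the potassium channel gene Kcnj1 (at most 0.37 TPM) and Scnn1b (at most 0.82 TPM) were nearly absent. Of 10 intercalated-cell markers 4 reached a mean of 1 TPM, namely Atp6v1b1 (19.4 to 110.1 TPM), Rhcg (0 to 110.8 TPM), Slc4a9 (0.16 to 8.83 TPM) and Car15 (2.62 to 8.57 TPM), and the defining genes Foxi1 (at most 0.10 TPM) and Slc4a1 (at most 0.48 TPM) did not. Of markers of other cell types, 1 of 7 for proximal tubule (summed level 0.94 to 17.2 TPM), 2 of 7 for the loop of Henle and distal tubule (19.9 to 131.6 TPM), 1 of 4 for podocytes (5.42 to 27.4 TPM), 1 of 5 for endothelium (49.1 to 110.7 TPM), 2 of 5 for immune cells (11.8 to 31.6 TPM) and 0 of 5 for fibroblasts (at most 0.81 TPM) reached that mean. GFP transcript was 0 to 0.79 TPM in WT libraries, 5.31 to 17.6 TPM in GFP-negative and 1065 to 1567 TPM in GFP-positive libraries.

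Aqp2, Aqp5 and Aqp6 lie next to each other on the forward strand of chromosome 15. Their promoter windows, from 250 bases before to 50 bases after the RefSeq transcription start (GRCm38.p6), are shown because these neighbours behaved differently in the same libraries. The windows are chr15:99578806-99579105 for Aqp2, chr15:99590778-99591077 for Aqp5 and chr15:99600950-99601249 for Aqp6. Capitals mark matches, on either strand, to the cAMP response element TGACGTCA, its partial site TGACG, the C/EBP pattern TTNNGNAA, the GATA pattern AGATAA, the ETS pattern AGGAAG, the AP-1 pattern TGANTCA and the TATA box TATAAA.
Aqp2: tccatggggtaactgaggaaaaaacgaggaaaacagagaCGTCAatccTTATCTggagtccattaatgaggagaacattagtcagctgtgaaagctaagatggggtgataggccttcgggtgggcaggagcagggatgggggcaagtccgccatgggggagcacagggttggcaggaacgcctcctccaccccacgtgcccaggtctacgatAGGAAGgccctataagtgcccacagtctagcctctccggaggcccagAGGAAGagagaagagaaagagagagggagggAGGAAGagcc
Aqp5: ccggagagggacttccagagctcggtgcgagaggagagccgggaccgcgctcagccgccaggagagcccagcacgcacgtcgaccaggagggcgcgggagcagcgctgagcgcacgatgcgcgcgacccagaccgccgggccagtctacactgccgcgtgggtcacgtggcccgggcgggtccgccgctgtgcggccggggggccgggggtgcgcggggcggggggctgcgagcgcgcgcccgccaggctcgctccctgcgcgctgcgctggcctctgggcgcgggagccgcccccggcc
Aqp6: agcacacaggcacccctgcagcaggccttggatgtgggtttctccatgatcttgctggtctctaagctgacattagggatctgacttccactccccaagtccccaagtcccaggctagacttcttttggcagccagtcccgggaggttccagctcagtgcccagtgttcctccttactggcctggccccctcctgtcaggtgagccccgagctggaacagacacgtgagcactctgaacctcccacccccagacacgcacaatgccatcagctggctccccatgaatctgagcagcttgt
The Aqp2 window held a partial cAMP response element at -211, a GATA match at -202 and ETS matches at -38, 10 and 41, counted from the transcription start to the first base of the match. Among 32851 RefSeq mouse promoter windows of 300 bases, 20.8% held the partial element, 11.2% the GATA pattern and 35.4% the ETS pattern. The full cAMP response element (1.79% of windows), the C/EBP pattern (40.7%), the AP-1 pattern (7.81%) and the TATA box (13.6%) did not match in the Aqp2 window. None of the 7 patterns matched in the Aqp5 or Aqp6 window. A match is a description of letters, and binding of a factor was not measured here. A link between matches and expression was not tested.

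Aqp2 was by far the most abundant aquaporin transcript, and Aqp5 was the second. Mean levels over the 22 libraries were 2201 TPM for Aqp2 and 25.4 TPM for Aqp5, with 2.82 TPM for Aqp6, 1.79 TPM for Aqp4 and 1.70 TPM for Aqp3, whose order varied between groups. Aqp1, Aqp8, Aqp9 and Aqp11 had means under 1 TPM. The filter for testing was a mean of at least 1 TPM over the libraries of a comparison, which 5 of the 9 genes passed in WT cells and in the clones. Changes are differences of mean log2(TPM + 1), which understate the change of genes with low TPM. They were tested with limma over all genes that passed the filter, and genes with a Benjamini-Hochberg adjusted p under 0.05 are said to have risen or fallen.

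**Figure D1:**
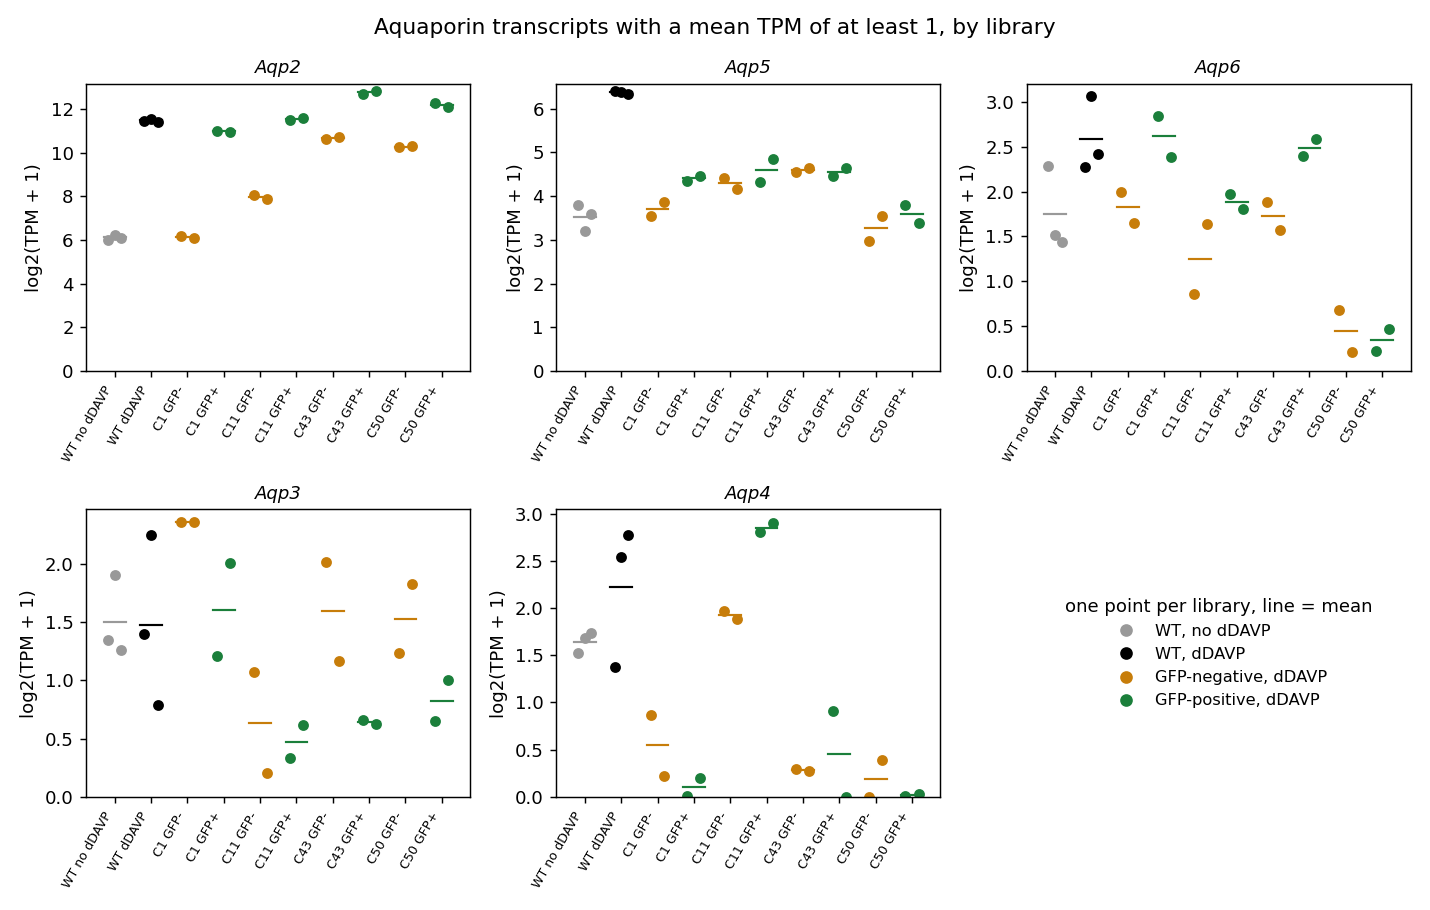
Levels of the 5 aquaporin transcripts with a mean of at least 1 TPM, as log2(TPM + 1), in each of the 10 groups; each point is a library and each line a group mean. Aqp2 follows both dDAVP and the GFP fraction, whereas the 3 WT libraries with dDAVP stand alone at the top for Aqp5, and Aqp6 is lowest in C50.

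Aqp2 encodes the vasopressin-regulated apical water channel of principal cells. In WT cells it was at 64.1, 74.9 and 68.4 TPM without dDAVP and at 2820, 3025 and 2759 TPM with dDAVP. The groups were far apart, and the means of 69.1 ± 5.43 TPM (SD, n = 3) and 2868 ± 139 TPM (SD, n = 3) differed 41.5-fold. On the log2 scale Aqp2 rose by 5.36 (SE 0.078, limma adjusted p = 1.7e-07). In bulk RNA, a change in how many cells express a gene and a change in transcript per cell cannot be told apart. Of the 5 aquaporin genes tested, Aqp2 and Aqp5 rose with dDAVP and 0 fell, where 8.88% of all tested genes changed, 2.37% upward and 6.51% downward. Of the changed genes 26.7% were higher, and 62.8% after median-ratio scaling, which moved the median log2 change of all genes from -0.16 to 0.00; Aqp2 and Aqp5 rose under both.

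Aqp2 was also higher in GFP-positive than in GFP-negative cells of all 4 clones, with no overlap of libraries in any clone, as 6.72% of tested genes were. In C1 it was at 72.6 and 66.5 TPM in GFP-negative and at 2027 and 2008 TPM in GFP-positive libraries, a 29.0-fold difference of means. In C11 it was at 263 and 236 TPM against 2896 and 3108 TPM, a 12.04-fold difference. In C43 it was at 1568 and 1680 TPM against 6649 and 7254 TPM, a 4.28-fold difference, and in C50 at 1232 and 1254 TPM against 4894 and 4409 TPM, a 3.74-fold difference. GFP-negative means thus ran from 69.5 to 1624 TPM and GFP-positive means from 2017 to 6952 TPM, with C1 and C11 lowest in both fractions.

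Over all clones Aqp2 rose by 3.11 on the log2 scale (SE 0.318, limma adjusted p = 4.74e-06). Within clones the log2 difference was 4.84 in C1, 3.59 in C11, 2.10 for C43 and 1.90 for C50, each with an SE of 0.0872. The difference itself depended on the clone (moderated F-test of the interaction of fraction and clone, limma adjusted p = 2.15e-06). The interaction was significant for 1 of the 5 tested aquaporins, Aqp2, and for 0.869% of all genes. Within a single clone Aqp2 was again the 1 aquaporin that passed, where 7.22% of genes changed in C1, 7.94% in C11, 16.3% in C43 and 26.6% for C50. Aqp5 in C1 (0.70, adjusted p = 0.111) passed too after median-ratio scaling (0.0403) or quantile normalization (0.0236), and without GFP-negative library 1 (0.0374) or 2 (0.0359) of C50.

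Ordered by mean, Aqp2 was lowest in WT cells without dDAVP and in GFP-negative C1 cells (69.5 ± 4.29 TPM, SD, n = 2), whose ranges overlapped although the C1 cells had been given dDAVP. Next came the GFP-negative cells of C11, C50 and C43, then GFP-positive C1 cells. WT cells with dDAVP and GFP-positive C11 cells (3002 ± 150 TPM, SD, n = 2) overlapped, and GFP-positive C50 and C43 cells were highest. The other neighbours in this order did not overlap. After median-ratio scaling the order was the same, but GFP-positive C11 cells lay apart from WT cells with dDAVP, and GFP-negative C50 and C43 cells overlapped. Against WT cells with dDAVP, Aqp2 was higher in GFP-positive C50 (log2 difference 0.70, limma adjusted p = 2.69e-05) and in GFP-positive C43 cells (1.28, adjusted p = 3.22e-08). It was 0.07 (SE 0.0812, adjusted p = 0.706) from them in GFP-positive C11 cells and lower in the other 5 clone fractions.

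The Aqp2 transcript did not keep a fixed ratio to the GFP transcript. In GFP-positive libraries Aqp2 was 1.55 to 1.57 times GFP in C1, 2.22 to 2.31 times in C11, 3.09 to 3.12 times in C50 and 6.23 to 6.25 times in C43. In GFP-negative libraries the ratio was 5.02 to 6.25 in C1, 22.2 to 26.7 in C11, 89.2 to 111 in C43 and 115 to 232 in C50. Replicates agreed closely in the GFP-positive fractions, and the clones did not overlap there.

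**Figure D2:**
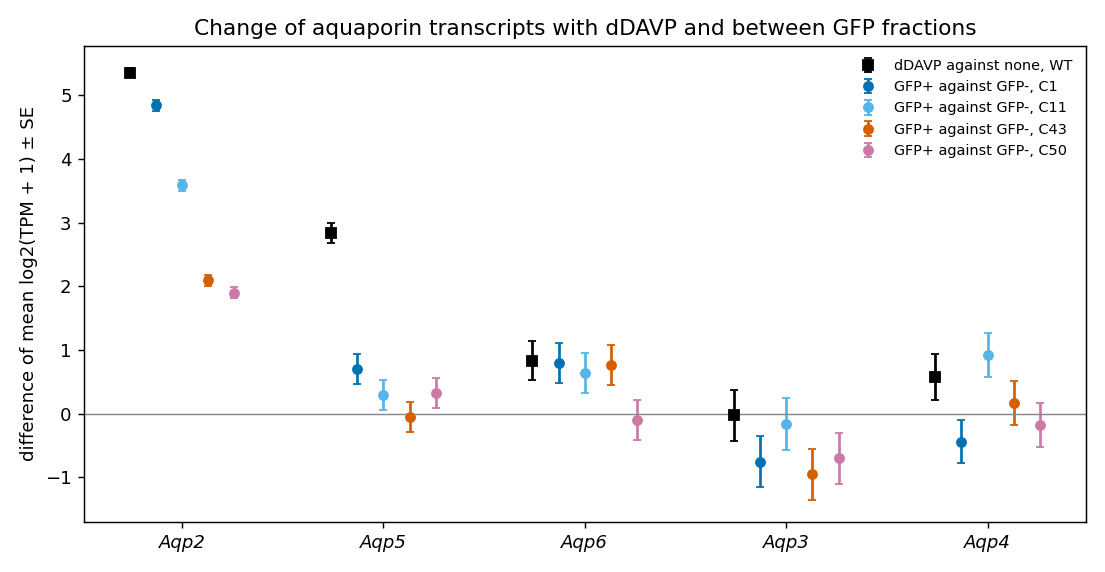
Difference of mean log2(TPM + 1) with its SE for the 5 tested aquaporins, for dDAVP against none in WT cells (square) and for GFP-positive against GFP-negative cells in each clone (circles). Aqp5 changed by 2.84 with dDAVP in WT cells and by at most 0.70 between GFP fractions of a clone.

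Aqp5 encodes a water channel best known from the apical membrane of secretory glands and lung epithelium. In WT cells it was at 13, 8.21 and 11.0 TPM without dDAVP and at 83.4, 82.1 and 79.8 TPM with dDAVP. The groups did not overlap, a state shared by 35.8% of tested genes in this comparison, and the means of 10.8 ± 2.41 and 81.8 ± 1.81 TPM (SD, n = 3 each) differed 7.61-fold. Aqp5 rose by 2.84 on the log2 scale (SE 0.15, limma adjusted p = 0.000145).

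The GFP fractions did not separate Aqp5 in this way. In C1 it was at 10.7 and 13.5 TPM in GFP-negative and at 19.3 and 21.1 TPM in GFP-positive libraries, without overlap, as held for 54.8% of all genes in C1. In C11 it was at 20.3 and 17.0 TPM against 19.0 and 27.8 TPM, in C43 at 22.5 and 24.1 TPM against 21.1 and 23.9 TPM, and in C50 at 6.89 and 10.7 TPM against 12.95 and 9.46 TPM, with overlap in all 3. Over all clones the log2 difference was 0.32 (SE 0.128, limma adjusted p = 0.0655) with a higher GFP-positive mean in 3 of 4 clones. That difference did pass the test after median-ratio scaling (0.40, adjusted p = 0.0125), after quantile normalization (0.40, adjusted p = 0.0107), without clone C43 (0.44, adjusted p = 0.0483) and with all 10 groups in the fit (adjusted p = 0.0329). Within the libraries of fewer detected genes it was 0.48 (clones C1, C43 and C50), and within those of more detected genes -0.07 (C11, C43 and C50). The direction in C43, -0.05, turned to 0.13 and 0.16 under the same 2 scalings.

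The dDAVP change in WT cells exceeded the GFP change in the clones by 2.52 for Aqp5 (SE 0.217, limma adjusted p = 1.68e-06) and by 2.25 for Aqp2 (SE 0.0852, adjusted p = 1.76e-10). None of the other 3 tested aquaporins passed this test, and 13.9% of all genes did. The 2 changes share no libraries.

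Although all clone cells had been given dDAVP, Aqp5 stayed below the level of dDAVP-treated WT cells in every clone fraction. It ranged from 6.89 to 27.8 TPM over the 16 clone libraries, with a median of 19.1 TPM, against at least 79.8 TPM in the WT libraries with dDAVP. Only 20 of 13244 genes (0.151%) had all 3 WT dDAVP libraries above all 16 clone libraries. The log2 differences ran from -1.77 in GFP-negative C43 cells to -3.11 in GFP-negative C50 cells, and limma's adjusted p was at most 0.000104. The 8 comparisons share the WT libraries with dDAVP, and clone, sorting and GFP reporter cannot be told apart in them. In the order of means, C50 and C1 GFP-negative and C50 GFP-positive cells overlapped their neighbours around WT cells without dDAVP, from 8.78 ± 2.67 TPM (SD, n = 2) in GFP-negative C50 cells to 12.1 ± 1.94 TPM (SD, n = 2) in GFP-negative C1 cells. The means of the remaining 5 fractions lay between 18.7 and 23.4 TPM, and each overlapped its neighbour in that order. After median-ratio scaling 5 positions of the Aqp5 order changed, WT cells without dDAVP were lowest, and GFP-positive C1 cells no longer overlapped GFP-negative C11 cells.

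A fall in all 8 clone fractions against WT cells with dDAVP was seen for 3 of 13244 genes (0.0227%): Aqp5, Rhcg and Piezo2. The last were named after their values were seen. Rhcg, an ammonia transporter of the collecting duct, was at 79.1 to 97.2 TPM in WT libraries without dDAVP, at 86.4 to 111 TPM with dDAVP and at 0 to 2.04 TPM in the clones. Piezo2, a mechanically gated ion channel, was at 3.55 to 6.68 TPM in WT libraries and at 0 to 1.56 TPM in the clones. Rhcg and Piezo2 were thus high in WT cells with and without dDAVP, and Aqp5 was high in WT cells with dDAVP only. Against WT cells with dDAVP, the share of all genes that differed was 14.4% in C1 GFP-negative, 13.8% in C1 GFP-positive, 2.74% in C11 GFP-negative, 11.8% in C11 GFP-positive, 4.04% in C43 GFP-negative, 21.7% in C43 GFP-positive, 16.5% in C50 GFP-negative and 14.5% in C50 GFP-positive cells. Of the 5 tested aquaporins, 1 to 4 differed in each, and Aqp5 was among them each time.

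Aqp6, the intracellular aquaporin of intercalated cells, was low in all groups. In WT cells it was at 3.87, 1.87 and 1.71 TPM without dDAVP and at 3.82, 7.34 and 4.35 TPM with dDAVP. The groups overlapped by 1 library, and the log2 difference of 0.84 (SE 0.307) did not pass the test (limma adjusted p = 0.119). Among intercalated-cell genes, Atp6v1b1, a proton pump subunit, was at 19.4 to 110.1 TPM in all libraries, whereas Foxi1 and Atp6v1g3 were at most 0.10 and 0.04 TPM. The summed level of the 10 intercalated-cell markers was 143 to 145 TPM without and 142 to 174 TPM with dDAVP. Of these sums, Rhcg was 79.1 to 97.2 TPM without and 86.4 to 111 TPM with dDAVP.

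Between GFP fractions, Aqp6 was higher in GFP-positive cells of 3 clones. It was at 2.99 and 2.14 TPM against 6.19 and 4.24 TPM in C1, at 0.81 and 2.11 TPM against 2.93 and 2.49 TPM in C11, and at 2.69 and 1.97 TPM against 4.26 and 5.00 TPM in C43. In C50 it was at 0.60 and 0.16 TPM against 0.17 and 0.39 TPM. The means differed 1.86-fold to 2.03-fold in C1, C11 and C43. Libraries did not overlap there, as held for 54.8%, 61.0% and 60.4% of all genes, and did overlap in C50. Over all clones Aqp6 rose by 0.53 (SE 0.171, limma adjusted p = 0.0264), with a higher GFP-positive mean in 3 of 4 clones. Aqp2 and Aqp6 rose and Aqp3 fell among the 5 tested aquaporins, where 35.3% of all genes changed, 12.1% upward and 23.2% downward (34.2% of changed genes higher, and 51.0% after median-ratio scaling). The summed intercalated-cell markers were 61.6 to 76.8 TPM in GFP-negative and 105 to 120 TPM in GFP-positive C1 cells, 49.1 to 79.3 and 66.7 to 88.2 TPM in C11, and 37.4 to 66.8 and 50.0 to 92.6 TPM in C43. In the clones, every marker of this list but Atp6v1b1 was at most 8.83 TPM. Rhcg was at most 2.04 TPM there, against 79.1 to 111 TPM in WT libraries. The part of these markers in the Aqp6 difference was not tested. The Aqp6 call was lost with a pseudocount of 0.1 (adjusted p = 0.0843), with any TPM above 0 (0.0743), with the replicate block (0.0503), with clone means as replicates (0.122), and without clone C1 (0.151), C11 (0.103) or C43 (0.151). It was also lost without any of 6 of the 16 libraries, with adjusted p up to 0.0615.

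Clones differed in Aqp6 within both fractions (moderated F-tests in limma, adjusted p = 0.0305 for GFP-negative and 0.00122 for GFP-positive cells). C50 was lowest, at 0.38 ± 0.311 TPM in GFP-negative and 0.28 ± 0.156 TPM in GFP-positive cells (SD, n = 2 each), and its Aqp2 in the same cells was 1243 and 4651 TPM. Aqp2 and Aqp5 also differed between clones in each fraction, where 16.9% of all genes differed in GFP-negative and 18.9% in GFP-positive cells. The adjusted p of Aqp6 in GFP-negative cells exceeded 0.05 after quantile normalization (0.0572), with any TPM above 0 (0.085) and when any of 6 libraries was left out (up to 0.0838). The summed intercalated-cell markers were 29.5 to 37.5 TPM in GFP-negative and 77.7 to 106 TPM in GFP-positive C50 cells. The adjusted p for Aqp5 was 0.00911 in GFP-negative and 0.0286 in GFP-positive cells, with the lowest means in C50. For GFP-positive cells this call of Aqp5 was lost with any TPM above 0 (adjusted p = 0.0815) and without any of 6 libraries, with an adjusted p up to 0.254.

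**Figure D3:**
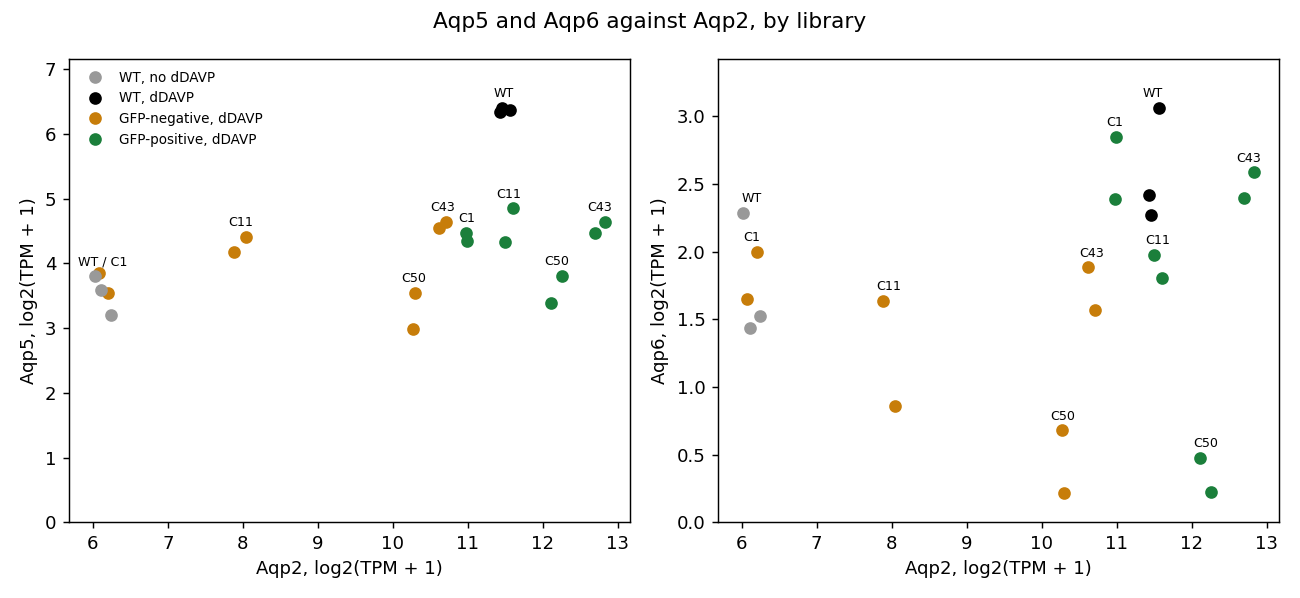
Aqp5 (left) and Aqp6 (right) against Aqp2 as log2(TPM + 1), with 1 point per library, coloured by treatment and GFP fraction and labelled by line. In C50, Aqp6 lies at 0.16 to 0.60 TPM beside Aqp2 levels of 1232 to 4894 TPM, and the WT libraries with dDAVP lie above the clone libraries for Aqp5 at like Aqp2 levels.

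Across the 10 group means on the log2 scale, Pearson's r of Aqp2 was 0.41 with Aqp5 and 0.09 with Aqp6, and 0.66 and 0.64 over the 8 groups without C50. Spearman's rho over the 10 groups was 0.47 and 0.24. C50, with the lowest Aqp5 and Aqp6 of the clones in each fraction, was the only clone left out. Aqp5 and Aqp6 had an r of 0.67, and 0.53 without C50. These groups share cell lines, and the relations are descriptions without a test. The genes most like a member over the 10 groups were sought among 9620 genes with a mean of at least 5 TPM. Aquaporins and provisional symbols, such as Gm and Rik names, were passed over. Closest to Aqp2 were Bcat1 (r = 0.94), which encodes a branched-chain amino acid transaminase, the transcription factor gene Cebpd (r = 0.94) and the retinoic acid binding protein gene Crabp2 (r = 0.93). They held ranks 1, 2 and 3 over the 22 libraries too, and ranks 1, 52 and 3 by Spearman's rho over the 10 groups. Bcat1 spanned 37.9 to 279 TPM, Cebpd 2.82 to 91.3 TPM and Crabp2 174 to 1158 TPM. The genes most like Aqp5 were less close: Mir546 (r = 0.77 over groups, 0.38 over libraries), Idh1, an isocitrate dehydrogenase gene (r = 0.75 and 0.75), and Gclm of glutathione synthesis (r = 0.69 and 0.61). Over libraries they held ranks 302, 1 and 8, and by Spearman's rho over groups ranks 38, 14 and 14. Idh1 spanned 34.7 to 94.2 TPM, Gclm 94.4 to 139 TPM and Mir546 0 to 75.2 TPM. The SD of Mir546 exceeded its mean in each group except WT cells with dDAVP, as in GFP-positive C11 cells (37.6 ± 53.1 TPM, SD, n = 2).

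Aqp3 encodes a basolateral water and glycerol channel of principal cells. In WT cells it was at 1.54, 2.75 and 1.40 TPM without and at 1.63, 3.75 and 0.73 TPM with dDAVP. The groups overlapped widely, with a log2 difference of -0.03 (SE 0.4, limma adjusted p = 0.969) whose sign turned under median-ratio scaling (0.08) and quantile normalization (0.01).

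Unlike Aqp2, Aqp3 was lower in GFP-positive than in GFP-negative cells. It was at 4.12 and 4.13 TPM against 1.31 and 3.01 TPM in C1, at 1.10 and 0.15 TPM against 0.26 and 0.53 TPM in C11, at 3.05 and 1.25 TPM against 0.58 and 0.54 TPM in C43, and at 1.35 and 2.54 TPM against 0.57 and 1.00 TPM in C50. Libraries overlapped in C11 and not in C1, C43 and C50, where 54.8%, 60.4% and 53.5% of all genes did not overlap either. Over all clones Aqp3 fell by 0.64 (SE 0.197, limma adjusted p = 0.0195), with a lower GFP-positive mean in 4 of 4 clones. The call was lost with clone means as replicates (adjusted p = 0.065), with any gene above 0 TPM in the test (0.0565), and without clone C1 (0.0879), C43 (0.0989) or C50 (0.0568). It held without any 1 of the 16 libraries, with adjusted p from 0.00467 to 0.0452. The test for differences between clones in Aqp3 gave an adjusted p of 0.0564 in GFP-negative and 0.196 in GFP-positive cells. The former fell below 0.05 after median-ratio scaling (0.042) or quantile normalization (0.0403), with no mean-variance trend (0.0493), with detected genes as covariate (0.0432), and without GFP-negative library 2 of C43 (0.0498), or 1 (0.0421) or 2 (0.0198) of C50.

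Aqp4 encodes the other basolateral water channel of principal cells. In WT cells it was at 1.88, 2.20 and 2.32 TPM without and at 1.59, 4.81 and 5.81 TPM with dDAVP. With dDAVP, the low library had 20250 genes above 0 TPM and the other two 31292 and 31102. The log2 difference of 0.58 (SE 0.362) did not pass the test (limma adjusted p = 0.307). Within the libraries of fewer detected genes it was -0.36 (1 library against 1), and within those of more detected genes it was 1.05 (2 against 2).

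Among the clones, Aqp4 was found in C11 and was near 0 elsewhere. In C11 it was at 2.92 and 2.70 TPM in GFP-negative and at 5.97 and 6.46 TPM in GFP-positive libraries. Elsewhere it was 0.82 and 0.17 against 0.01 and 0.15 TPM in C1, 0.23 and 0.21 against 0.88 and 0 TPM in C43, and 0 and 0.31 against 0.01 and 0.02 TPM in C50. All 12 libraries of these 3 clones were under 1 TPM, and Aqp4 passed the filter in the clones through C11 alone, so its differences between clones (limma adjusted p = 0.0143 and 0.000443) follow from the same libraries that let it be tested. The value for GFP-negative cells became 0.0977 with a pseudocount of 0.1, and 0.087 and 0.0835 without C11 library 1 or 2. The difference between fractions over all clones, 0.12 (SE 0.206), did not pass the test (limma adjusted p = 0.702). Within C11 the difference of 0.92 (SE 0.344), with no overlap of libraries (61.0% of all genes in C11), did not pass either (limma adjusted p = 0.145). 

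Aqp1, Aqp8, Aqp9 and Aqp11 were barely present. Aqp1, the constitutive water channel of the proximal tubule and thin descending limb, was at most 0.12 TPM and above 0 in 13 of 22 libraries. Aqp8, a channel of gut and liver epithelia, was at most 0.27 TPM and above 0 in 8. Aqp9, a glycerol channel of liver, reached 1.21 TPM in a GFP-negative C43 library and 1.06 TPM in a WT library with dDAVP, and was above 0 in 12. Aqp11, an intracellular aquaporin of the proximal tubule, was above 0 in 20 libraries with a median of 0.41 TPM and at least 1 TPM in 1, a GFP-positive C43 library at 1.11 TPM. The other aquaporin genes in the table were as low, with at most 0.69 TPM for Aqp7, 0.38 TPM for Aqp12 and 0.31 TPM for Mip. When all genes above 0 TPM were tested, 0 of 72 tests of these 4 members over 18 comparisons passed in limma, the lowest adjusted p was 0.246, and 3 had an unadjusted p under 0.05.

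**Figure D4:**
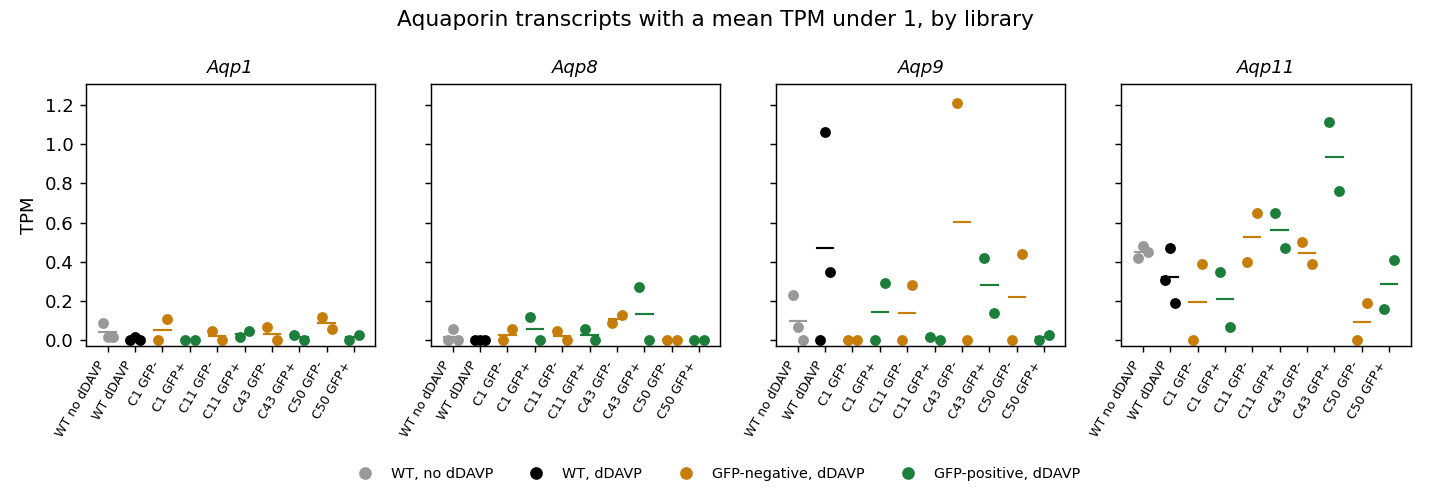
TPM of Aqp1, Aqp8, Aqp9 and Aqp11 in each of the 10 groups on a linear axis; each point is a library and each line a group mean. No library exceeds 1.21 TPM, and Aqp11 is above 0 in 20 of 22 libraries.

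Because the other members were low, the makeup of the aquaporin transcripts followed Aqp2. Of the summed TPM of 12 aquaporin genes, Aqp2 made up 75.0 to 82.5% in WT libraries without dDAVP, 76.4 to 79.6% in GFP-negative C1 libraries and 91.0 to 91.1% in GFP-negative C11 libraries. It made up 96.8 to 96.9% in WT libraries with dDAVP and 98.1 to 99.7% in the remaining clone libraries. The sum without Aqp2 was 15.9 to 21.4 TPM in WT libraries without dDAVP and 90.8 to 100.2 TPM with dDAVP, most of it Aqp5, and at most 38.0 TPM in any clone library. GFP-positive C50 libraries had 378 to 466 times more Aqp2 than Aqp5, and WT libraries with dDAVP 33.8 to 36.8 times more.

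In the RefSeq annotation of GRCm38.p6, the order along chromosome 15 is Faim2, Gm5808, Aqp2, Aqp5, Aqp6, Racgap1 and Asic1. Racgap1, a cytokinesis gene, moved against Aqp2: it fell by 0.70 with dDAVP (SE 0.0855, limma adjusted p = 0.00566, and 0.0697 with all 10 groups in the fit) and by 0.91 in GFP-positive cells (SE 0.155, adjusted p = 0.000362). Faim2, on the other side, was at most 2.36 TPM and rose by 0.51 in GFP-positive cells (SE 0.154, adjusted p = 0.0179, and 0.0984 with clone means as replicates). Near Aqp1, which was at most 0.12 TPM, the methyltransferase gene Inmt was at 164 to 3244 TPM. Inmt was 478 ± 48.1 TPM without and 1163 ± 34.9 TPM with dDAVP in WT cells (SD, n = 3 each), a rise of 1.29 (SE 0.0824, limma adjusted p = 0.000318). It rose by 1.42 in GFP-positive cells (SE 0.0733, adjusted p = 8.95e-09). Mindy4, between Inmt and Aqp1, did not pass with dDAVP (-0.06, limma adjusted p = 0.765) or between GFP fractions (0.01, 0.974). Near other members, Lcmt1 rose by 0.68 in GFP-positive cells, and Ube2r2, Clns1a and Pak1 fell by 0.36, 0.29 and 0.54. The calls of Clns1a and Pak1 were lost in 2 of 31 and 3 of 30 alternatives. Nol6, Arhgap17 and Asic1 did not pass. Of all genes, 8.88% changed with dDAVP and 35.3% between fractions.

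Among the receptor and cAMP genes upstream of aquaporin-2, Avpr2 and Crem rose in both comparisons. Of 13 genes of this route, 12 were tested: 2 rose and 1 fell with dDAVP (8.88% of all genes changed), and 4 rose and 2 fell in GFP-positive cells (35.3% of all genes changed). The median log2 change of the list was -0.19 with dDAVP and 0.00 between fractions, against -0.16 and -0.06 over all genes. Avpr2, the V2 receptor, rose from 176 ± 6.14 to 262 ± 19.1 TPM with dDAVP (SD, n = 3 each), by 0.57 on the log2 scale (SE 0.0757, limma adjusted p = 0.00722). In GFP-positive cells it rose by 1.16 (SE 0.0566, adjusted p = 5.03e-09), with clone means of 330 to 381 TPM against 139 to 176 TPM. Its GFP change was larger than its dDAVP change by 0.59 (adjusted p = 0.000169), the opposite of Aqp2. Crem, a cAMP-responsive modulator of transcription, rose by 1.30 with dDAVP (SE 0.112) and by 0.76 in GFP-positive cells (SE 0.117), and Pde4d, a phosphodiesterase that degrades cAMP, rose by 0.71 in GFP-positive cells (SE 0.218, adjusted p = 0.0197, and 0.119 with clone means as replicates, 0.0608 with any TPM above 0, 0.0645 without clone C1 and 0.0667 without C50). Prkacb, a catalytic subunit of protein kinase A, fell by 0.57 with dDAVP (SE 0.138, adjusted p = 0.0473), a call lost in 11 of 16 alternatives, among them median-ratio scaling (adjusted p = 0.0673) and 5 of the 6 single-library omissions (up to 0.131).

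Of 15 transcription factor genes linked to Aqp2, 13 were tested. With dDAVP 1 rose and 4 fell, where 2.37% of all genes rose and 6.51% fell. In GFP-positive cells 7 rose and 0 fell, where 12.1% rose and 23.2% fell, with a list median of 0.24 against -0.06 over all genes. Of all changed genes 34.2% were higher, and 51.0% after median-ratio scaling. Among the 7, the call of Jun (0.51, SE 0.171, limma adjusted p = 0.0307) was lost in 10 of 31 alternatives, with adjusted p up to 0.161. Gata3, a factor of the collecting duct lineage, rose by 0.91 (SE 0.108) and the epithelial ETS factor Elf3 by 0.81 (SE 0.0821) in GFP-positive cells, with limma adjusted p of 1.68e-05 and 4.3e-06. Fos, an AP-1 subunit, fell by 0.68 with dDAVP (SE 0.09, adjusted p = 0.00722) and rose by 0.64 in GFP-positive cells (SE 0.107, adjusted p = 0.000299). The 2 changes of Fos differed by -1.33 (SE 0.14, adjusted p = 1.33e-05). Cebpb, of the C/EBP family, rose by 0.45 with dDAVP (SE 0.081, adjusted p = 0.0205), a call lost in 6 of 16 alternatives, 3 of them single-library omissions (up to 0.083). Nfat5, the tonicity-responsive factor, fell by 1.04 with dDAVP (SE 0.243, adjusted p = 0.0435), a call lost in 10 of 16 alternatives, among them median-ratio scaling (adjusted p = 0.0558), quantile normalization (0.0632) and 5 of the 6 single-library omissions (up to 0.142).

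Of 26 genes of aquaporin-2 vesicle trafficking, all tested, 1 rose and 1 fell with dDAVP, and 6 rose and 4 fell in GFP-positive cells, where 8.88% and 35.3% of all genes changed. Rab11a, a GTPase of recycling endosomes, rose by 0.72 with dDAVP (SE 0.0839, limma adjusted p = 0.00473) and by 0.35 in GFP-positive cells (SE 0.0782). Msn encodes moesin, which links membranes to actin. It fell by 1.75 in GFP-positive cells (SE 0.141, adjusted p = 4.81e-07), and by 0.41 with dDAVP (SE 0.0955, adjusted p = 0.0438), the latter a call lost in 12 of 16 alternatives, among them median-ratio scaling (adjusted p = 0.124) and each of the 6 single-library omissions (0.051 to 0.125). Stx3, an apical t-SNARE, fell by 0.79 (SE 0.0862), and Vamp2, a vesicle SNARE, rose by 0.63 in GFP-positive cells (SE 0.155, adjusted p = 0.00537, and 0.0529 with clone means as replicates). Of 7 genes of ubiquitination and turnover, 0 passed with dDAVP by limma, and in GFP-positive cells the ubiquitin ligase gene Nedd4l rose by 0.67 (SE 0.131) and Stub1 fell by 0.27 (SE 0.0599, adjusted p = 0.158 after median-ratio scaling). Of 8 genes of osmolyte and urea transport, 6 were tested with dDAVP, where Nfat5 fell, and 5 between GFP fractions, where 0 rose and 2 fell. Akr1b3, which makes sorbitol, fell by 1.21 (SE 0.0921) and the chaperone gene Hspa4l by 0.76 (SE 0.105) in GFP-positive cells.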

How the data were processed

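The authors deposited TPM per gene and library, made with STAR and RSEM per the submitters' processing notes. The genome build and annotation are not given in the sources used here. The deposited table also holds a ratio between group means by the authors, not printed here, and 1 further column of values was not used. Lines that shared a symbol were summed, which left 54514 of 55415 entries. Libraries were grouped by their labels.

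Tests used limma 3.58.1 in R 4.3.3 on log2(TPM + 1), with a mean-variance trend, for genes that averaged 1 TPM or more. P-values are two-sided and adjusted by Benjamini-Hochberg over all tested genes. The WT comparison used 6 libraries, and the GFP comparison 16 with clone as a covariate. Within-clone differences, F-tests over clones and comparisons with WT cells used a mean per group and a shared spread. The method was tested on simulated data. TPM keep no depth, so replicate spread is the only precision.

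The aquaporins, the gene lists and the rules were chosen with earlier results of these data known. Named genes were the members, the 3 genes most like Aqp2 and Aqp5, the 2 nearest genes on each side of a member, GFP, and up to 4 called genes per list and comparison. Alternatives were another pseudocount, filters, scalings, moderation, the replicate block, other sets of libraries and leaving out each library or clone. The covariate for detected genes and the values within libraries of fewer or more detected genes were added after the data were seen.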

Additional observations from a re-analysis of the deposited data

Results flagged for a closer look

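The Aqp2 difference between GFP-positive and GFP-negative cells was not of the same size in the 4 clones. It was 4.84 on the log2 scale in C1, 3.59 in C11, 2.10 for C43 and 1.90 for C50, and the test of the interaction between fraction and clone gave a limma adjusted p of 2.15e-06. Mean levels over the clones ran from 69.5 to 1624 TPM in GFP-negative and from 2017 to 6952 TPM in GFP-positive cells.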

How the results depend on the processing

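The rise of Aqp2 and Aqp5 with dDAVP and the rise of Aqp2 in GFP-positive cells kept direction under every alternative run, and significance under every alternative with a test (the values within libraries of fewer or more detected genes have none). Without single libraries, Aqp2 changed by 5.30 to 5.41 and Aqp5 by 2.67 to 2.97 with dDAVP, and Aqp2 by 2.94 to 3.23 between GFP fractions. The Aqp5 difference between GFP fractions passed the test after median-ratio scaling (0.3983), quantile normalization (0.3993), without clone C43 (0.4429) and with all 10 groups in the fit (0.32), and ran from 0.2577 to 0.3703 without single libraries, where it passed without GFP-positive library 1 of C11 or C43 or GFP-negative library 2 of C50.

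Aquaporins called between GFP fractions were 1 (Aqp2) with a mean of at least 5 TPM, any TPM above 0, clone means or without clone C1. They were 2 to 4 without single libraries, against 3 of 5 tested. Calls over all genes were 4119 with a mean of at least 5 TPM, 3726 with any TPM above 0 and 2406 with clone means, against 4626. Without single libraries they were 4170 to 6043. With a mean of at least 5 TPM, 2 differed between clones in each fraction, and 15 combinations of gene and clone fraction differed from WT cells with dDAVP. These fewer calls at 5 TPM reflect fewer aquaporins tested. Aquaporins differing between GFP-negative clones were 2 to 5 without single libraries, against 4 of 5 tested, where 16.9% of all genes differed. Aqp4, which passed the filter in the clones through C11 alone, was tested in 14 of these 16 omissions.

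Over all genes, dDAVP calls were 442 with any TPM above 0, 691 with no mean-variance trend, 122 with the replicate block, 789 with all 10 groups and 2694 with detected genes as covariate, against 1198, and ran from 314 to 2038 without single libraries (2038 without WT dDAVP library 2). GFP calls were 2406 with clone means, against 4626. The cause was not tested.

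Directions that turned belonged to differences that did not pass the test. Aqp4 between GFP fractions was -0.3296 over all clones and -0.031 in C43 with a pseudocount of 0.1, and 0.1095 in C50 after quantile normalization. Aqp5 in C43 was 0.1314 and 0.1599, and Aqp3 with dDAVP 0.0751 and 0.0148, after median-ratio scaling and quantile normalization. Within libraries of fewer detected genes, Aqp3 with dDAVP was 0.132, Aqp4 with dDAVP -0.3582 and Aqp4 between GFP fractions -0.2638, and within those of more detected genes Aqp5 between GFP fractions was -0.0712. Without single libraries, Aqp3 ran from -0.412 to 0.3166 with dDAVP and from -0.5969 to 0.2718 in C11, Aqp4 from -0.2868 to 0.6239 in C43 and from -0.3681 to 0.0215 in C50, Aqp5 from -0.1361 to 0.0386 in C43, and Aqp6 from -0.3273 to 0.1367 in C50.

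Correlations of the deviations of same-numbered libraries were -0.2117, -0.0306 and -0.1017 in WT cells and 0.0538, 0.0078, 0.211 and 0.0912 in C1, C11, C43 and C50, over 0.1 in C43 alone, so that the numbers were not taken to pair libraries. With the replicate block 2 aquaporins were called with dDAVP and 2 between GFP fractions, Aqp6 having an adjusted p of 0.0503. The calls of Avpr2 (0.0653), Fos (0.0672), Cebpb (0.125), Rab11a (0.0653) and Racgap1 (0.0653) with dDAVP were also not made under that block.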
